A study of Mus musculus with 13 samples.

Results

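Damaged hepatocytes (dHeps) that had been cultured without a ROCK inhibitor were compared with dHeps cultured without a protein kinase D (PKD) inhibitor, across all genes. The members were the 2 libraries of the group 5C-G and the 2 libraries of the group 5C-C, chosen by the names of their columns, so 4 of the 13 libraries of the series entered the contrast. The cells came from WT mice injured with carbon tetrachloride (CCl4) and were kept for 16 days in serum-free Hepatocyte Maintenance Medium (Lonza). The complete cocktail, 5C, held 5 compounds, and each group had lost 1 of them. The 5C-G cells received the PKD inhibitor CID755673, the AMPK activator ETC-1002, forskolin and Salidroside, but not the ROCK inhibitor GSK429286A. The 5C-C cells received GSK429286A, ETC-1002, forskolin and Salidroside, but not CID755673. Forskolin activates adenylate cyclase, and Salidroside is a plant glycoside. The 2 groups therefore shared 3 compounds and differed in 2, so that in this contrast the loss of the one inhibitor and the loss of the other cannot be told apart. The 2 inhibitors were used at unequal concentrations, as the study's methods give them. Libraries of 5C and of the solvent DMSO, 2 each, are shown beside them. The letters A and B name the libraries of a group in column order and pair nothing across groups. The labels do not say whether the libraries of a group came from separate mice or cultures. The paper states that its n counts biological replicates, and it gives n = 2 for its heatmap of these removals. Whether a replicate was a mouse or a culture is not stated, so the p-values measure only the spread between libraries.

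ROCK1 and ROCK2 are kinases that act downstream of the small GTPase RhoA. They raise the phosphorylation of myosin light chain and steady actin filaments through LIM kinase and cofilin, so that non-muscle cells contract and build stress fibres. Actin assembly frees the coactivator MRTF, which works with serum response factor (SRF) on genes of the contractile apparatus, and tension in the cytoskeleton also favours the coactivators YAP and TAZ, which work with TEAD factors. Protein kinase D1, D2 and D3 are activated by diacylglycerol and protein kinase C, and are known for the fission of carriers at the trans-Golgi network and for the export of class IIa histone deacetylases from the nucleus.

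Total counts were 32119114 and 36478154 in the 5C-G libraries and 30195867 and 45491932 in the 5C-C libraries, the latter being the lowest and the highest of the 13. Libraries of a group differed by far more than sampling noise, and the chi-square per degree of freedom between the libraries was 71.9 in 5C-G and 65.5 in 5C-C, against 54.2 in 5C-F, 23.6 in 5C-E, 12.1 in 5C and 6.91 in DMSO. Over the 500 most variable genes, library A of 5C-G correlated best with a DMSO library (r = 0.725, a description across genes) and library B with library A of its own group (r = 0.691), whereas the 5C-C libraries correlated best with each other (r = 0.807). Mitochondrial genes took 0.907% and 0.991% of counts in 5C-G and 1.08% and 0.581% in 5C-C.

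The hepatocyte label was checked with Alb, Ttr, Apoa1, Hnf4a and Cps1. Alb, the main plasma protein, stood at 4140 and 4480 FPKM in 5C-G and at 3430 and 2550 FPKM in 5C-C, and the nuclear receptor Hnf4a at 9.62 and 8.16 against 17.4 and 13.4 FPKM. Cps1, the first enzyme of the urea cycle, was low at 16.5 and 9.08 against 24.1 and 10.8 FPKM, compared with 89.7 and 87.3 FPKM in 5C. Ttr was at 200 and 231 against 142 and 188 FPKM, under the 321 and 330 FPKM of 5C. Apoa1 was at 2010 and 2950 against 1320 and 1770 FPKM, above the 907 and 880 FPKM of 5C. Markers of other cells were present as well. The 26 macrophage markers summed to 6070 and 8480 FPKM in 5C-G and to 1420 and 2140 FPKM in 5C-C, and the 20 stellate cell and fibroblast markers to 1060 and 1060 against 1180 and 1410 FPKM. The endothelial markers Pecam1, Cdh5, Tek and Tie1 lay between 0 and 0.117 FPKM in the 4 libraries, and the B lymphocyte markers Cd79a and Ms4a1 between 0 and 0.0903 FPKM. The RNA is from bulk cultures, in which fewer cells of a type and less RNA per cell cannot be told apart.

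Of 19884 genes tested, 1463 (7.36%) differed between the groups, where a call is a Benjamini-Hochberg adjusted p under 0.05 in edgeR's quasi-likelihood test with a log2 fold change beyond 1. The log2 fold change is given as 5C-G minus 5C-C, so that a positive value is higher without the ROCK inhibitor and a negative value is higher without the PKD inhibitor. Higher in 5C-G were 824 genes (4.14%), and higher in 5C-C were 639 genes (3.21%). The median over all genes tested was 0.02. A fit of the 4 libraries alone, with 2 residual degrees of freedom in place of 6, called 471 and 381 genes, of which 470 and 364 were among those above. Genes were then read in 35 lists by function. Calls in each list are read against the shares of all genes, 4.14% higher in 5C-G and 3.21% higher in 5C-C. The medians furthest above 0 were those of the macrophage markers (2.00) and of the contractile and SRF target genes (1.13). The medians furthest below 0 were those of the cholangiocyte and progenitor markers (-1.60), the acute phase genes (-1.23) and the DNA replication genes (-0.87). In 4 lists no gene was called.

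**Figure D1:**
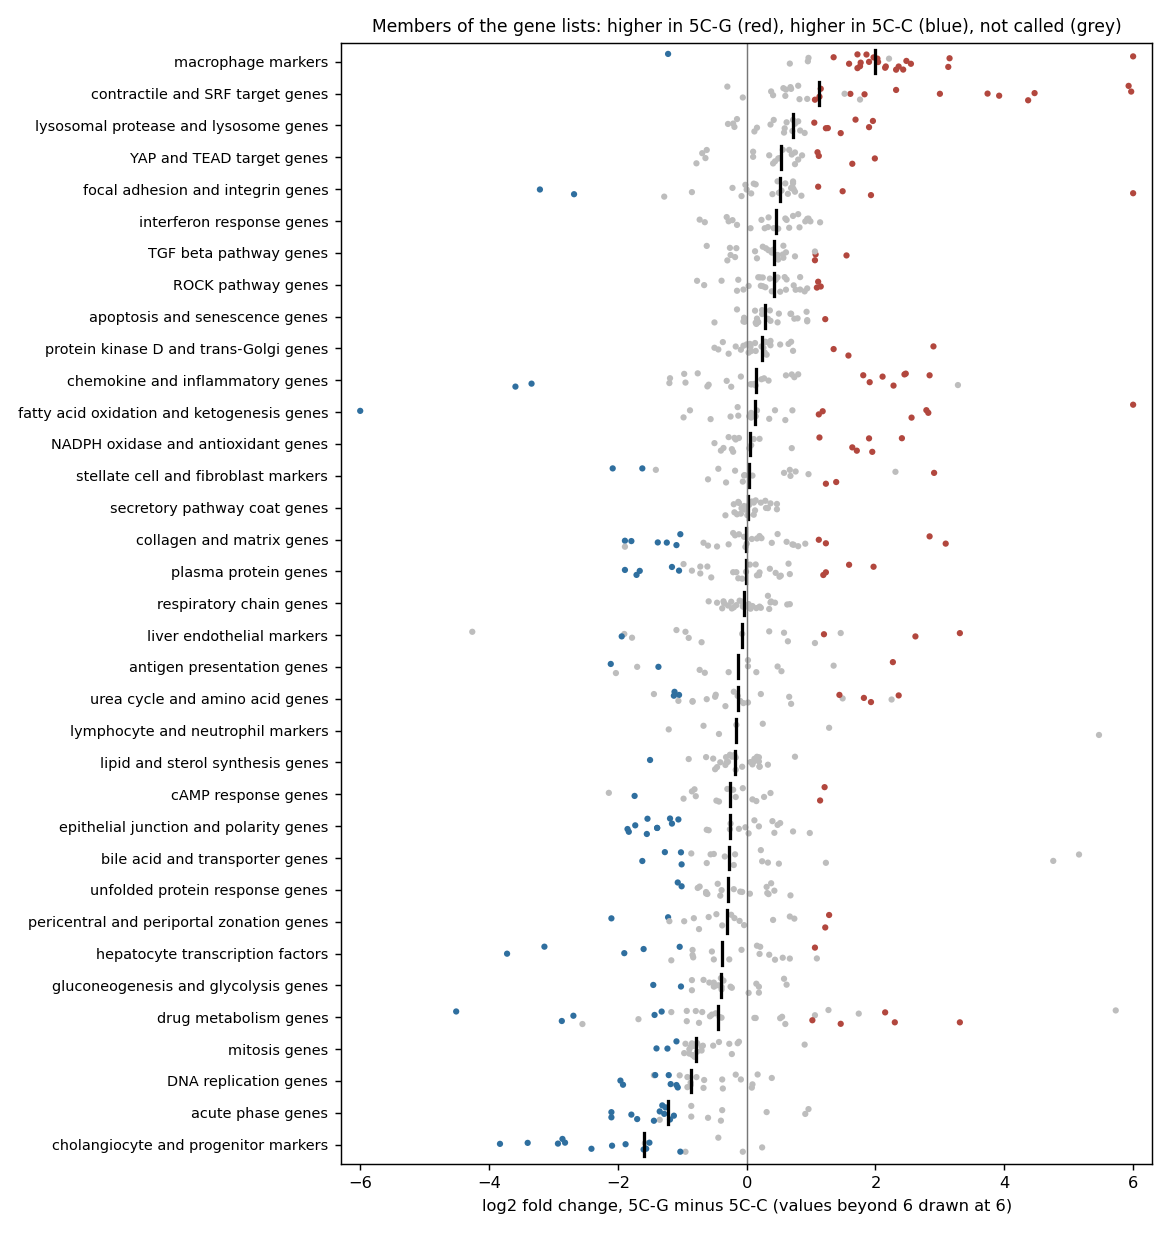
Log2 fold change (5C-G minus 5C-C) of the tested members of 35 gene lists, 1 point per gene, with a black bar at each list's median. Red and blue points were called higher in 5C-G and in 5C-C, grey points were not called, and values beyond 6 are drawn at 6. The lists run from the macrophage markers, with a median of 2.00, to the cholangiocyte and progenitor markers, with a median of -1.60.

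The leading genes in each direction were the 10 called protein-coding genes with the largest change among those with a mean of at least 10 FPKM in the higher group, separate libraries, and a call that was kept under a correction for GC content and gene length. Of 222 genes that met these terms on the side of 5C-G, the first 10 were Actg2, Acta2, Ms4a4a, Cnn1, Myl9, Rerg, Lyve1, Cyp2e1, Cd5l and Marco. Actg2, Acta2, Cnn1 and Myl9 belong to the contractile apparatus, and Lyve1, Cd5l, Marco and Ms4a4a are genes that liver macrophages express. Of 133 genes on the side of 5C-C, the first 10 were Dmkn, Mmp7, Tnfrsf9, A2m, Pglyrp1, Il33, Sftpd, Cited4, Cldn7 and Cldn4. Mmp7 is a matrix metalloproteinase of injured bile duct epithelium, Cldn4 and Cldn7 are claudins of tight junctions, Il33 is an alarmin cytokine, and A2m is a protease inhibitor of plasma. Il33 was at 1.68 and 1.19 FPKM in 5C-G and at 19.2 and 14.3 FPKM in 5C-C (log2 fold change -3.58 ± 0.27 SE), with the groups well apart. Several of the genes higher in 5C-C were uneven within 5C-G. Sftpd, the collectin surfactant protein D, went from -3.56 to -8.20 without library A of 5C-G and to -2.59 without library B. Pglyrp1, a peptidoglycan recognition protein, went from -3.75 to -5.50 and -2.98, Cited4 to -4.38 without library A, and Dmkn to -5.38 without library B.

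The targets themselves were read first. Rock1 was at 3.61 and 1.55 FPKM in 5C-G and at 1.53 and 1.40 FPKM in 5C-C, and its libraries nearly met (log2 fold change 0.76 ± 0.25 SE, adjusted p = 0.0622). Library A of 5C-G decided that value, which was 0.15 (adjusted p = 0.794) without it, 1.18 (adjusted p = 0.000828) without library B and 0.27 with the correction for GC content and gene length. Rock2 was at 16.3 and 8.32 against 7.02 and 5.31 FPKM, with a log2 fold change of 0.94 ± 0.23 (adjusted p = 0.0115), short of the fold threshold. Its value was 0.50 without library A of 5C-G, and it passed both thresholds without library B of 5C-G (1.28, adjusted p = 0.000589) or library A of 5C-C (1.06, adjusted p = 0.0233). In 5C, Rock2 stood above all 4 libraries, at 21.5 and 22.2 FPKM. None of the PKD genes passed the test, and the libraries of Prkd1 and Prkd3 overlapped between the groups. Prkd1 was at 5.45 and 3.30 against 3.37 and 3.42 FPKM (0.31 ± 0.29, adjusted p = 0.546), Prkd2 at 5.46 and 5.38 against 4.29 and 5.36 FPKM (0.13 ± 0.21, adjusted p = 0.758), and Prkd3 at 5.64 and 3.36 against 3.82 and 2.91 FPKM (0.37 ± 0.20, adjusted p = 0.275). An inhibitor acts on the protein, so that these transcript levels do not measure the activity of the kinases.

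Acta2, smooth muscle alpha actin and the usual marker of activated stellate cells and myofibroblasts, reached 746 and 991 FPKM in 5C-G and 33.2 and 44.1 FPKM in 5C-C (log2 fold change 4.47 ± 0.24 SE, adjusted p = 7.67e-09). The 5C libraries lay between them at 233 and 215 FPKM, as did the DMSO libraries at 255 and 300 FPKM, close to 5C. Against 5C, Acta2 was higher by 2.11 in 5C-G and lower by 2.36 in 5C-C on the log2 scale, the 2 comparisons sharing the 5C libraries. Actg2, the enteric smooth muscle actin, was at 24.7 and 36.6 FPKM in 5C-G and at 0.212 and 0.704 FPKM in 5C-C (5.97 ± 0.46, adjusted p = 4.9e-07), with a value of 7.18 when library B of 5C-C was left out. Myl9, a regulatory light chain of myosin II and hence a protein whose phosphorylation ROCK governs, was at 130 and 187 against 10.7 and 12.8 FPKM (3.74 ± 0.23, adjusted p = 5.78e-08). Cnn1, the actin-binding protein calponin, was at 11 and 15.4 against 0.604 and 1.09 FPKM (3.92 ± 0.43, adjusted p = 1.2e-05). Tagln, or SM22 alpha, was at 6.38 and 10.6 against 0.648 and 0.199 FPKM (4.37 ± 0.56, adjusted p = 5.45e-05), with 5.30 and 3.73 when library A or library B of 5C-C was left out. For each of these 5 genes both 5C-G libraries lay above both 5C-C libraries, and the 5C libraries lay in between. How reads shared by the near-identical actins were counted is not given in the sources used here, so that Acta2, Actg2 and the cytoplasmic actins are uncertain in their split.

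Of the 27 contractile and SRF target genes tested, 13 (48.1%) were called higher in 5C-G, against 4.14% of all genes, and 25 of 27 had a fold change above 0, with a median of 1.13. None was called higher in 5C-C by edgeR, DESeq2 or limma, and none had an unadjusted p under 0.05 in that direction. Besides the genes above, Myh11, Lmod1, Fhl2, Cnn2, Tpm1, Tpm2, Flna and Vcl were called. Fhl2, a LIM domain cofactor, was at 35.5 and 34.9 against 7.93 and 11.3 FPKM (1.83 ± 0.23, adjusted p = 3.86e-05). Cnn2, calponin 2, was at 180 and 263 against 64.0 and 79.4 FPKM (1.61 ± 0.22, adjusted p = 0.000113). The abundant cytoplasmic actins moved less than Acta2. Actb, cytoplasmic beta actin, was at 1480 and 1730 against 932 and 718 FPKM (0.94 ± 0.18, adjusted p = 0.00226), and Actg1 at 636 and 653 against 369 and 358 FPKM (0.80 ± 0.16, adjusted p = 0.00285), both short of the fold threshold. The transcription factor Srf itself was at 20.7 and 19.0 against 11.2 and 10.9 FPKM (0.82 ± 0.17, adjusted p = 0.00348). Vcl, the focal adhesion protein vinculin, had wide pairs, with 26.1 and 7.92 FPKM in 5C-G and 5.59 and 1.00 FPKM in 5C-C, and its call (2.32 ± 0.52, adjusted p = 0.00639) was lost without library A of 5C-G (1.36, adjusted p = 0.127). Tpm2 lost its call without library B of 5C-G (0.68) or without library A of 5C-C (0.79), Flna likewise (0.97 and 0.89), and Tpm1 without library A of 5C-C (0.90). The count for the list was 10 to 14 across the fits that left out a library, used the 4 libraries only or carried the correction for GC content and gene length.

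**Figure D2:**
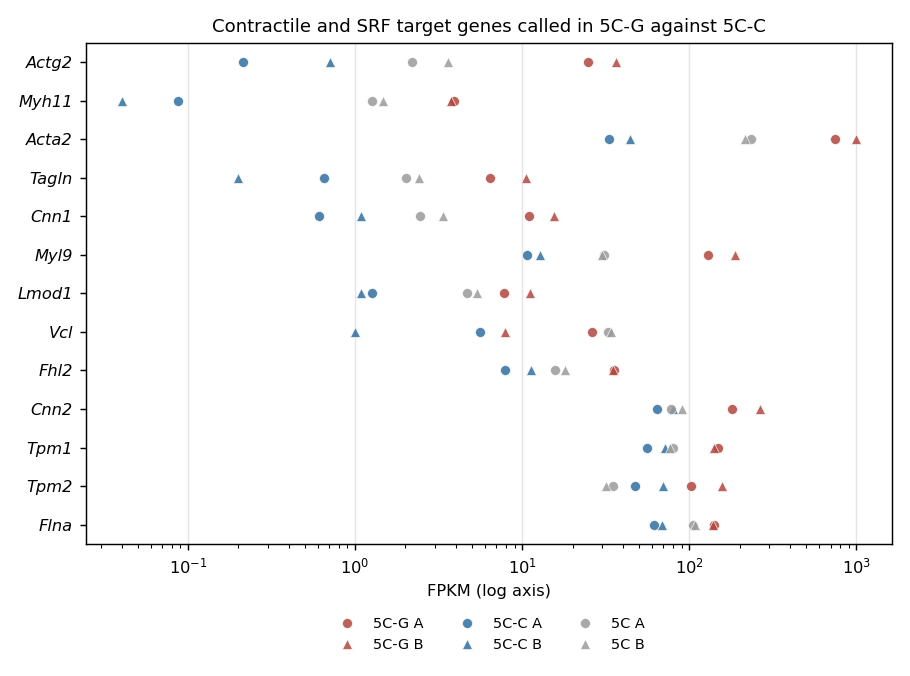
FPKM (log axis) of the contractile and SRF target genes called in 5C-G against 5C-C, ordered by fold change, with 1 point per library of 5C-G (red), 5C-C (blue) and 5C (grey). Circles are libraries A and triangles libraries B. Acta2 lies at 746 and 991 FPKM in 5C-G and at 33.2 and 44.1 FPKM in 5C-C.

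SRF binds a 10-base element, the CArG box, and its letters were searched on both strands in the 250 bases before the start of each gene, in RefSeq promoters of the build GRCm38.p6. Of the 28 genes of the list 23 had a promoter in that table, and 9 of the 23 (39.1%) held a box without mismatch, against 439 of 27025 genes (1.62%) of the whole table. The list was assembled from known SRF targets, so that this share describes the list and bears on no contrast. Among the called members 4 of 10 held a box, and among the tested members that were not called 4 of 12 did, namely Acta1, Actg1, Filip1l and Srf. The promoters of the 4 called members are printed 5′ to 3′ on the strand of the gene, with the box in capitals, because they show where the element sits before the start. They lie at chr2:156775214-156775463 (plus strand) for Myl9, chr10:79988350-79988599 (plus strand) for Cnn2, chr1:43163962-43164211 (minus strand) for a start of Fhl2, and chr14:20929148-20929397 (plus strand) for Vcl. The box begins 161 bases before the start in Myl9, 56 in Cnn2, 31 in Fhl2 and 227 in Vcl.
Myl9: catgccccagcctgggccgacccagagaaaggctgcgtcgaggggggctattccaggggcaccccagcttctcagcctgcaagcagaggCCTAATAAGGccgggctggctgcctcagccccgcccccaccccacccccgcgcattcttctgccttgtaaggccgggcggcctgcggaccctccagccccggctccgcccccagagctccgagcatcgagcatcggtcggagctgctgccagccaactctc
Cnn2: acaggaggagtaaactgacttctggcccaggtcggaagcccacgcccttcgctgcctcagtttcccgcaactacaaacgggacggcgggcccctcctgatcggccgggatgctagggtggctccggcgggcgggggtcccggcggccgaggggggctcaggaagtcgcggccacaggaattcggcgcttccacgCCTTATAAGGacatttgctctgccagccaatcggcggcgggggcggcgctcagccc
Fhl2: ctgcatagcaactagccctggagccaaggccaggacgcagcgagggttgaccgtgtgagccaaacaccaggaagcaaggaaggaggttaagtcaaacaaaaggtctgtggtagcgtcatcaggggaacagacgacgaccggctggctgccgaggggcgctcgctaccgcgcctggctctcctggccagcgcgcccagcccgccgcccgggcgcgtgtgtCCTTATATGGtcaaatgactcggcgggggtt
Vcl: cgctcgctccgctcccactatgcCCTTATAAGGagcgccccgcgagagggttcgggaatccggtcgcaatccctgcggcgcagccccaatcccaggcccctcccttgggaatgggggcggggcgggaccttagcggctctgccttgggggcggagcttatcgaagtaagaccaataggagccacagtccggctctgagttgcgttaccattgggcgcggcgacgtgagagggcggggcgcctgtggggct

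YAP and TEAD target genes leaned to 5C-G, with 18 of 22 above 0 (median 0.54), although most were not called. Called higher in 5C-G were 4 of 22 (18.2%, against 4.14% of all genes), and 2 in the fit of the 4 libraries. Their best known members led. Ccn2 (listed as Ctgf), a matricellular growth factor, was at 333 and 222 FPKM in 5C-G and at 75.1 and 60.7 FPKM in 5C-C (1.99 ± 0.18, adjusted p = 1.39e-06). Ccn1 (listed as Cyr61), its close relative, was at 346 and 239 against 98.7 and 84.4 FPKM (1.64 ± 0.18, adjusted p = 1.01e-05). In both genes the libraries were separate, and the 5C libraries, at 259 and 234 FPKM for Ccn2 and 213 and 184 FPKM for Ccn1, lay above both 5C-C libraries. Crim1 and F3, the coagulation initiator tissue factor, were also called, and each lost its call without library A of 5C-G (0.81 and 0.79) or without library B of 5C-C (0.82 and 0.80). The call count of the list was 2 to 6 when single libraries were left out, with 1 gene called the other way without library A of 5C-G. Ankrd1, a mechanosensitive target, overlapped between the groups at 24.6 and 16.3 against 18.8 and 18.1 FPKM (0.10 ± 0.22, adjusted p = 0.841). Igfbp3, an abundant member that binds insulin-like growth factors, lay on the other side at 127 and 82.9 against 186 and 142 FPKM (-0.69 ± 0.18, adjusted p = 0.0163) and missed the fold threshold.

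The genes of the ROCK pathway run from its upstream GTPases to the regulators of myosin. Of 30 genes 3 (10%) were called, all higher in 5C-G, against 4.14% of all genes, and the median was 0.42. They were Msn, a membrane to actin linker phosphorylated by ROCK, at 78.5 and 45.4 against 32.3 and 21.9 FPKM (1.15 ± 0.20, adjusted p = 0.00104), Mylk, the myosin light chain kinase, at 21.0 and 14.8 against 9.11 and 7.06 FPKM (1.11 ± 0.18, adjusted p = 0.00063), and Ppp1r12b, a subunit of myosin phosphatase, at 2.78 and 1.73 against 1.14 and 0.919 FPKM (1.09 ± 0.21, adjusted p = 0.00196). These calls lay close to the fold threshold, and 0 of the 30 genes was called higher in 5C-G without library A of 5C-G, with 1 without library B of 5C-C, and 7 when library B of 5C-G or library A of 5C-C was left out. Without library A or library B of 5C-G, 1 gene was called higher in 5C-C. Mylk stood at 38.9 and 37.0 FPKM in 5C, above all 4 libraries. Cfl1, cofilin, was at 243 and 293 against 173 and 204 FPKM (0.48 ± 0.19, adjusted p = 0.114), and Rhob at 286 and 278 against 221 and 201 FPKM (0.39 ± 0.16, adjusted p = 0.136).

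Focal adhesion and integrin genes had 4 of 28 members (14.3%) called higher in 5C-G and 2 (7.14%) called higher in 5C-C, against 4.14% and 3.21% of all genes. The median was 0.52, and limma called 2 and 0. Tns1, the adhesion protein tensin 1, was at 47.9 and 32.6 against 15.4 and 12.4 FPKM (1.49 ± 0.17, adjusted p = 1.95e-05), and Itga8, the integrin alpha 8 subunit of stellate cells, at 2.05 and 0.999 against 0.435 and 0.336 FPKM (1.93 ± 0.31, adjusted p = 0.000391). Itgav was called but lost the call without library A of 5C-G (0.67), and the list then had 2 calls on each side. Ilk, the integrin-linked kinase, had 22 and 33 counts in 5C-G and no count in 5C-C, and lost its call whenever a library was left out. It was low in 5C (0.0217 and 0.0237 FPKM) and DMSO (0.139 and 0.0585 FPKM) as well. Whether these levels are under-counted was not tested, and no fold is given. How its reads were assigned is not given in the sources used here. Itgb6, the epithelial integrin that activates TGF-β, was low in all libraries and higher in 5C-C, at 0.223 and 0.0231 against 1.24 and 0.895 FPKM (-3.21 ± 0.62, adjusted p = 0.00224), with -5.43 and -2.37 when library A or library B of 5C-G was left out. The most abundant member, Itgb1, was at 323 and 231 against 213 and 158 FPKM (0.54 ± 0.17, adjusted p = 0.0424).

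The PKD and trans-Golgi list had 3 of 30 genes (10%) called, all higher in 5C-G, against 4.14% of all genes. These were the cells that still received the PKD inhibitor. The median was 0.24, and limma called 1 gene. Hdac9, a class IIa histone deacetylase that PKD phosphorylates, was low and separate at 0.538 and 0.409 against 0.0757 and 0.0488 FPKM (2.90 ± 0.36, adjusted p = 4.21e-05). Rin1, a Ras effector and PKD substrate, was at 11.2 and 9.36 against 4.40 and 3.50 FPKM (1.35 ± 0.20, adjusted p = 0.000201), and Prkch, protein kinase C eta, at 1.61 and 1.68 against 0.584 and 0.501 FPKM (1.58 ± 0.30, adjusted p = 0.00175). Hdac9 in DMSO was at 0.906 and 0.910 FPKM, above both groups. The abundant members Arf1 and Cttn gave 239 and 211 against 215 and 208 FPKM and 70.9 and 49.6 against 53.7 and 62.7 FPKM, and in both genes the groups overlapped. None of the 26 secretory coat genes (COPI, COPII and cargo receptors) was called by edgeR, DESeq2 or limma, and 2 had an unadjusted p under 0.05, both higher in 5C-G. Their median was 0.03 and their summed level 860 and 782 against 878 and 779 FPKM.

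Matrix genes split. Of 32 collagen and matrix genes 4 (12.5%) were called higher in 5C-G and 6 (18.8%) higher in 5C-C, against 4.14% and 3.21% of all genes. The median was -0.01. Timp1, the inhibitor of matrix metalloproteinases, showed the largest level of any member in 5C-C, at 1840 and 2620 FPKM against 493 and 721 FPKM in 5C-G (-1.89 ± 0.23, adjusted p = 3.08e-05), and both groups were above 5C, where it was at 257 and 257 FPKM. Fn1, fibronectin, was at 337 and 311 against 688 and 607 FPKM (-1.03 ± 0.14, adjusted p = 0.000104), and at -0.99 without library A of 5C-G. Col6a1 and Col6a2, chains of the same collagen VI trimer, were higher in 5C-C, at 137 and 130 against 308 and 250 FPKM and at 46.9 and 59.1 against 142 and 130 FPKM (-1.09 ± 0.16 and -1.38 ± 0.19, adjusted p = 0.00015 and 9.32e-05), while Col6a3, the remaining chain, was higher in 5C-G at 5.95 and 4.39 against 2.42 and 1.88 FPKM (1.23 ± 0.19, adjusted p = 0.000271). The largest change among them was in Col14a1, a fibril-associated collagen, at 4.56 and 4.73 against 0.448 and 0.616 FPKM (3.09 ± 0.24, adjusted p = 4.9e-07). The abundant Sparc and Spp1 did not pass the test (-0.21 ± 0.18 and 0.23 ± 0.15, adjusted p = 0.519 and 0.377). Of 26 TGF-β pathway genes 3 (11.5%, against 4.14% of all genes) were called, all higher in 5C-G (median 0.43). They were led by the latent TGF-β binding protein Ltbp2 at 62.8 and 42.3 against 16.8 and 17.9 FPKM (1.55 ± 0.19, adjusted p = 3.83e-05).

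Stellate cell and fibroblast markers were called in both directions. Of 20 such markers 3 (15%) were called higher in 5C-G and 2 (10%) higher in 5C-C, against 4.14% and 3.21% of all genes, with a median of 0.03. Des, desmin, was at 67.3 and 105 against 30.8 and 34.6 FPKM (1.39 ± 0.23, adjusted p = 0.000517) and fell under the fold threshold without library B of 5C-G (0.92). Mgp, matrix Gla protein, lay the other way at 141 and 200 against 372 and 663 FPKM (-1.62 ± 0.25, adjusted p = 0.000293). Dcn, decorin, was at 213 and 165 against 200 and 177 FPKM (-0.03 ± 0.18, adjusted p = 0.953), and both groups were under the 5C level of 403 and 396 FPKM.

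Macrophage markers were higher in 5C-G almost throughout. Of 26 genes 21 (80.8%) were called higher in 5C-G and 1 higher in 5C-C, with a median of 2.00. Lyz2, lysozyme 2 of myeloid cells, was at 2110 and 2540 FPKM in 5C-G and at 313 and 506 FPKM in 5C-C (2.48 ± 0.23, adjusted p = 1.89e-06). The complement chain C1qa was at 1160 and 1790 against 233 and 510 FPKM (1.97 ± 0.36, adjusted p = 0.0014), and at 2.68 without library B of 5C-C. C1qb was at 961 and 1500 against 217 and 378 FPKM (2.03 ± 0.27, adjusted p = 9e-05). Adgre1, which encodes F4/80, was at 56.2 and 53.3 against 10.1 and 8.25 FPKM (2.55 ± 0.17, adjusted p = 1.65e-07). Cd5l, a secreted protein of tissue macrophages, was at 115 and 158 against 15.3 and 15.3 FPKM (3.15 ± 0.22, adjusted p = 1.65e-07), and the scavenger receptor Marco at 21.7 and 36.7 against 1.97 and 4.54 FPKM (3.13 ± 0.45, adjusted p = 0.000152, and 3.91 without library B of 5C-C). In each of these 6 genes both 5C-G libraries lay above both 5C-C libraries. Lyz2 was at 2510 and 2570 FPKM in DMSO and at 244 and 306 FPKM in 5C, and Adgre1 at 80.6 and 74.5 FPKM in DMSO and at 11.5 and 12.6 FPKM in 5C, so that for both the 5C-C level lay nearer to 5C. How reads shared by Lyz2 and its close relative Lyz1 were counted is not given.

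Cd14, the lipopolysaccharide coreceptor that hepatocytes can also make, was higher in 5C-C at 63.6 and 78.5 against 172 and 154 FPKM (-1.22 ± 0.21, adjusted p = 0.000883), and at -0.99 without library A of 5C-G. Cx3cr1 had 14 and 10 counts in 5C-G and none in 5C-C, at least 4.17-fold higher against a floor of 3 counts per library, and lost its call without library B of 5C-C. Ms4a4a, in the lead by rule, was uneven within 5C-G at 71.4 and 8.54 FPKM, against 2.65 and 1.89 FPKM in 5C-C (4.05 ± 0.62, adjusted p = 0.000274), and the value was 1.99 without library A of 5C-G.

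Some genes that macrophages also express were called in the same direction. Of 24 lysosomal genes 7 were called higher in 5C-G and none the other way by edgeR, DESeq2 or limma, or at an unadjusted p under 0.05 (median 0.71). Ctss, a cysteine protease of antigen-presenting cells, was at 814 and 760 against 190 and 223 FPKM (1.90 ± 0.17, adjusted p = 1.57e-06). Gpnmb, a transmembrane glycoprotein of lysosome-rich macrophages, was at 128 and 116 against 44.2 and 29.9 FPKM (1.69 ± 0.18, adjusted p = 8.72e-06). The abundant Ctsd was at 1150 and 1600 against 574 and 955 FPKM (0.83 ± 0.23, adjusted p = 0.0275), under the fold threshold. Its value went to 0.41 without library A of 5C-C and to 1.27 without library B of 5C-C. Of 20 NADPH oxidase and antioxidant genes 6 were called, all higher in 5C-G, with a median of 0.06 over the list, and among them were the phagocyte oxidase genes Cybb, Ncf1, Ncf4 and Rac2. Cybb, the catalytic subunit, was at 14.9 and 15.6 against 3.22 and 2.44 FPKM (2.41 ± 0.26, adjusted p = 8.82e-06). Hmox1, heme oxygenase 1, was also called, at 153 and 154 against 69.7 and 67.9 FPKM (1.13 ± 0.17, adjusted p = 0.000195), while the antioxidant enzymes Gpx1 and Prdx1 did not pass the test (0.04 ± 0.24 and -0.28 ± 0.18). Chemokine and inflammatory genes had 7 of 31 called higher in 5C-G and 2 higher in 5C-C (median 0.14). Ccl6 was at 114 and 153 against 27.0 and 34.2 FPKM (2.11 ± 0.21, adjusted p = 5.08e-06), and Ccl12 at 13.7 and 18.1 against 0.862 and 3.39 FPKM (2.84 ± 0.64, adjusted p = 0.00663), with its call lost without library A of 5C-C (2.11, adjusted p = 0.0514). Among endothelial markers 3 of 17 were called higher in 5C-G, namely Stab1, Lyve1 and Fcgr2b, which macrophages share with sinusoidal endothelium, and 1 was called higher in 5C-C, Egfl7, at 1.35 and 1.24 against 3.53 and 6.07 FPKM (-1.94 ± 0.36, adjusted p = 0.00164). Lyve1 was at 35.4 and 41.8 against 4.94 and 2.82 FPKM (3.31 ± 0.24, adjusted p = 3.08e-07). The median of that list was -0.07, or 0.14 without Tek, which had no count in 5C-G and 4 and 0 counts in 5C-C and so has no bound. The summed macrophage level given above moved with these groups, and its part in them was not tested.

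Not all immune genes were called in that direction. None of the 24 interferon response genes was called by edgeR, DESeq2 or limma. They leaned to 5C-G all the same, with 18 above 0 and a median of 0.455. At an unadjusted p under 0.05, 8 were higher in 5C-G and 2 higher in 5C-C. With the correction for GC content and gene length, 2 were called higher in 5C-G. Of 14 antigen presentation genes 1 (7.14%) was called higher in 5C-G and 2 (14.3%) higher in 5C-C, against 4.14% and 3.21% of all genes. Cd86, a costimulatory ligand, was called higher in 5C-G at 1.66 and 2.08 against 0.488 and 0.288 FPKM (2.27 ± 0.41, adjusted p = 0.00117). The class II genes Cd74 and H2-Ab1 were called higher in 5C-C, H2-Ab1 not without library A of 5C-G (adjusted p = 0.0611) or library B of 5C-C (adjusted p = 0.085). Cd74, the invariant chain, was at 1.31 and 1.61 against 4.84 and 7.56 FPKM (-2.11 ± 0.31, adjusted p = 0.000203). None of the 7 lymphocyte and neutrophil markers tested was called by edgeR or DESeq2, and none had an unadjusted p under 0.05. In 3 of the 7 a group had no more than 3 counts in each library, so that a missing call says little. The summed level of the 7 markers ran from 2.45 to 4.63 FPKM over the 4 libraries.

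**Figure D3:**
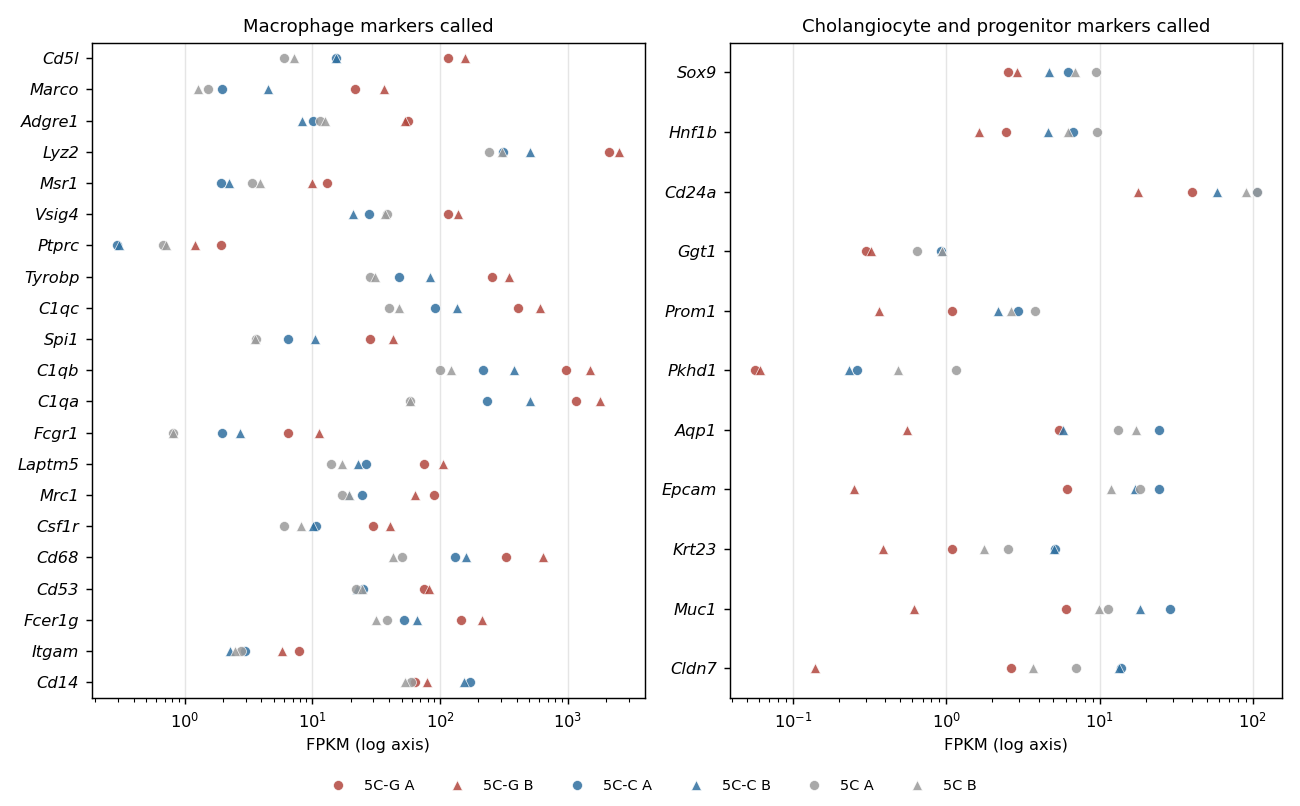
FPKM (log axis) of the called macrophage markers (left) and the called cholangiocyte and progenitor markers (right) in each library of 5C-G (red), 5C-C (blue) and 5C (grey), with circles for libraries A and triangles for libraries B. Cx3cr1, with no count in 5C-C, is left out, as is 1 of the 12 called cholangiocyte and progenitor markers. Lyz2 lies at 2110 and 2540 FPKM in 5C-G and at 313 and 506 FPKM in 5C-C, and Epcam at 6.10 and 0.249 against 24.6 and 17.1 FPKM.

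Genes of bile duct epithelium and of hepatic progenitors were mostly higher in 5C-C. Of 17 markers 12 (70.6%) were called in that direction, against 3.21% of all genes, none the other way by any of the 3 tools or at an unadjusted p under 0.05, and the median was -1.60. Krt23, a type I keratin, was at 1.09 and 0.385 FPKM in 5C-G and at 5.15 and 5.07 FPKM in 5C-C (-2.86 ± 0.44, adjusted p = 0.000321, and -3.66 without library A of 5C-G). Mmp7, of the leading genes, was at 39.2 and 1.08 against 382 and 352 FPKM (-4.30 ± 0.80, adjusted p = 0.00162), and 5C lay between at 163 and 133 FPKM. Cd24a was at 40.3 and 17.7 against 106 and 58.0 FPKM (-1.56 ± 0.28, adjusted p = 0.00123). Krt19, a keratin of bile duct cells, reached 224 and 202 FPKM in 5C-C and no more than 123 FPKM in 5C-G (-0.95 ± 0.19, adjusted p = 0.0027), which missed the fold threshold, and Krt7 at 42.1 and 52.5 against 45.3 and 51.8 FPKM (-0.06 ± 0.19, adjusted p = 0.913). Library B of 5C-G decided much of the size in several genes, although not the direction. Epcam, the epithelial adhesion molecule, was at 6.10 and 0.249 against 24.6 and 17.1 FPKM, so that its value of -2.82 ± 0.70 (adjusted p = 0.0127) became -1.89 without that library and -6.31 without library A of 5C-G. Mmp7 went from -4.30 to -3.35 without library B and to -8.35 without library A, Cldn7 from -3.40 to -2.48 and -6.51, and Cldn4 from -3.31 to -2.34 and -7.78. Of the 17 markers 10 to 12 were called when any of the 4 libraries was left out, and 7 in the fit of the 4 libraries alone.

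Epithelial junction and polarity genes shared this direction in part. Of 25 genes 10 (40%) were called higher in 5C-C, none the other way by any of the 3 tools (2 at an unadjusted p under 0.05), and the median was -0.26. Krt18, a keratin of simple epithelia including hepatocytes, was at 254 and 352 against 660 and 683 FPKM (-1.16 ± 0.20, adjusted p = 0.00096), and its partner Krt8 at 326 and 417 against 543 and 563 FPKM (-0.59 ± 0.20, adjusted p = 0.0605). The value for Krt18 was -0.87 without library A of 5C-G. Cldn3, a tight junction claudin, was at 40.2 and 45.8 against 107 and 115 FPKM (-1.39 ± 0.24, adjusted p = 0.000731). Ocln, occludin, had the largest change of the list at 1.34 and 0.434 against 4.78 and 1.39 FPKM (-1.85 ± 0.47, adjusted p = 0.0149), but its libraries nearly met, and without library A of 5C-C the value was -0.82 and without library B of 5C-G -1.30, neither called. Cdh2, N-cadherin, lay on the other side at 17.1 and 11.5 against 9.38 and 7.53 FPKM (0.72 ± 0.19, adjusted p = 0.0216). Without library A of 5C-C 5 of the 25 genes were called, and without library B of 5C-G 6 were.

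Acute phase genes, which hepatocytes make in response to interleukin 6 and related signals, were mostly higher in 5C-C. Of 20 genes 17 lay under 0 (median -1.23), and 11 (55%, against 3.21% of all genes) were called higher in 5C-C. None was called in the other direction by any of the 3 tools (2 at an unadjusted p under 0.05). Lcn2, lipocalin 2, was at 189 and 281 FPKM in 5C-G and at 767 and 843 FPKM in 5C-C (-1.79 ± 0.21, adjusted p = 2.24e-05). Hp, haptoglobin, was at 864 and 1010 against 2070 and 2150 FPKM (-1.19 ± 0.16, adjusted p = 0.000117), and fell just short of the fold threshold (-0.99) with the correction for GC content and gene length. Serpina3n was at 267 and 282 against 754 and 711 FPKM (-1.44 ± 0.16, adjusted p = 1.37e-05), its reads possibly shared with its close paralogs. Lbp, lipopolysaccharide binding protein, was at 12.1 and 10.1 against 48.5 and 44.6 FPKM (-2.10 ± 0.17, adjusted p = 5.47e-07), and Socs3, the feedback inhibitor of the STAT3 pathway, at 16.0 and 19.2 against 52.4 and 60.6 FPKM (-1.70 ± 0.27, adjusted p = 0.000373). In these genes both 5C-C libraries lay above both 5C-G libraries. Saa3 was called (-1.31, adjusted p = 0.0284) but rested on library B of 5C-C, at 358 FPKM against 125 in library A, and was -0.31 (adjusted p = 0.627) without it. The call was also lost without library A of 5C-G (-1.07, adjusted p = 0.206).

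Plasma protein genes were called on both sides. Of 31 genes 4 (12.9%) were called higher in 5C-G and 5 (16.1%) higher in 5C-C, against 4.14% and 3.21% of all genes. The 3 fibrinogen chains moved together: Fga was at 121 and 122 against 427 and 327 FPKM, Fgb at no more than 103 against 415 and 323 FPKM, and Fgg at 165 and 172 against 584 and 502 FPKM, with log2 fold changes of -1.66 ± 0.17, -1.89 ± 0.17 and -1.71 ± 0.18 (adjusted p = 7.07e-06, 1.89e-06 and 6.98e-06). A2m, one of the leading genes and outside this list, was at 2.15 and 1.28 against 28.5 and 23.0 FPKM (-3.96 ± 0.21, adjusted p = 7.94e-09). Apolipoprotein Apoa2 lay the other way at 191 and 210 against 35.6 and 64.5 FPKM (1.97 ± 0.25, adjusted p = 6.09e-05), and Plg, plasminogen, at 21.0 and 17.8 against 7.0 and 5.64 FPKM (1.59 ± 0.17, adjusted p = 1.25e-05). Apoe, which macrophages also make, was called at 4160 and 6130 against 1560 and 2890 FPKM (1.19 ± 0.32, adjusted p = 0.0213), and the call was lost without library B of 5C-G (0.77) or library A of 5C-C (0.72). Alb did not pass the test (0.51 ± 0.19, adjusted p = 0.098), and both groups were under 5C, at 9440 and 9430 FPKM. Trf, transferrin, was at 2230 and 2330 against 4830 and 4020 FPKM (-0.98 ± 0.15, adjusted p = 0.00026), at the edge of the fold threshold.

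Calls among hepatocyte transcription factors lay mostly on the side of 5C-C. Of 22 genes 5 (22.7%, against 3.21% of all genes) were called higher in 5C-C and 1 (4.55%, near the 4.14% of all genes) higher in 5C-G. The median was -0.39. Hnf4a passed the adjusted p but not the fold threshold (-0.83 ± 0.18, adjusted p = 0.00444), with 21.5 and 18.8 FPKM in 5C. Foxa2, a pioneer factor of liver, was at 3.40 and 3.08 against 7.06 and 4.40 FPKM (-0.84 ± 0.28, adjusted p = 0.063). Its value was -0.57 without library A of 5C-C and -1.13 without library B of 5C-C. Nr1i2, the xenobiotic receptor PXR, was at 3.30 and 2.19 against 11 and 8.85 FPKM (-1.90 ± 0.25, adjusted p = 6.22e-05), and Nr0b2, the bile acid induced corepressor SHP, at 0.439 and 0.435 against 2.83 and 4.73 FPKM (-3.14 ± 0.69, adjusted p = 0.00549). Onecut1, also known as Hnf6, was low in both groups at 0.0151 and 0.0266 against 0.249 and 0.315 FPKM, and its call (-3.72 ± 0.79, adjusted p = 0.00444) was lost without library A of 5C-G (adjusted p = 0.0503). Cebpa, a factor of mature hepatocytes that myeloid cells share, was called higher in 5C-G at 30.8 and 27.9 against 15.0 and 12.6 FPKM (1.06 ± 0.19, adjusted p = 0.00116), and was at 0.96 without library B of 5C-C. The 5 calls higher in 5C-C became 7 without library B of 5C-C, 3 without library B of 5C-G or library A of 5C-C, and 2 in the fit of the 4 libraries.

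Drug metabolism genes gave 5 calls in each direction among 32 (15.6%), against 4.14% of all genes higher in 5C-G and 3.21% higher in 5C-C. Higher in 5C-C were Cyp2b10, at 3.58 and 3.64 against 24.8 and 27.1 FPKM (-2.87 ± 0.23, adjusted p = 5.77e-07), and Cyp2c29, at 4.44 and 4.82 against 30.3 and 28.4 FPKM (-2.69 ± 0.26, adjusted p = 3.85e-06), both targets of the receptors CAR and PXR. In 5C they were higher still, at 88.3 and 78.0 FPKM for Cyp2b10 and 170 and 165 FPKM for Cyp2c29. Cyp3a11 showed the same order without a call, at 42.4 and 41.5 FPKM in 5C-G, 85.7 and 70.9 FPKM in 5C-C and 173 and 191 FPKM in 5C (-0.93 ± 0.25, adjusted p = 0.0232). In Cyp2a5 library A of 5C-C was far above the rest, at 6.74 against 1.01 FPKM in library B, and the call was lost without it (-2.69, adjusted p = 0.0716). Cyp2e1, the pericentral enzyme that activates CCl4, went the other way at 12.2 and 9.26 against 1.33 and 0.813 FPKM (3.31 ± 0.35, adjusted p = 8.46e-06), and both groups were under 5C at 75.5 and 73.1 FPKM and DMSO at 108 and 112 FPKM. Sult1a1, a sulfotransferase, was among the abundant members and higher in 5C-C at 121 and 126 against 335 and 269 FPKM (-1.32 ± 0.17, adjusted p = 7.99e-05). The Cyp2b, Cyp2c, Cyp3a and Cyp4a families hold near-identical copies, so that the single genes named are uncertain.

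Genes of lipid and amino acid use were called in both directions. Of 24 fatty acid oxidation and ketogenesis genes 6 (25%) were called higher in 5C-G, against 4.14% of all genes, and 1 higher in 5C-C. The fit of the 4 libraries called 2 and 0. The median of the list was only 0.13, and the calls include Cyp4a genes, near-identical copies that do not count as separate findings. Fabp1, the liver fatty acid binding protein, was at 52.6 and 51.7 against 5.56 and 8.69 FPKM (2.82 ± 0.29, adjusted p = 7.43e-06), and the PPAR alpha target Cyp4a10 at 1.90 and 1.06 against 0.376 and 0.0728 FPKM (2.79 ± 0.51, adjusted p = 0.00135), or 4.17 and 1.95 without library A or library B of 5C-C. Cyp4a14, of the same family, had 128 and 85 counts in 5C-G and 0 and 2 in 5C-C, and no fold is given. Cyp4a12a had no count in 5C-G and 42 and 7 counts in 5C-C, nearly all in library A, so that no fold is given, and it lost its call without library A of either group. Acaa2, a thiolase of mitochondrial beta-oxidation and an abundant member, was at 246 and 290 against 245 and 245 FPKM (0.11 ± 0.17, adjusted p = 0.765). In the urea cycle and amino acid list, 4 of 25 genes (16%) were called higher in 5C-G and 3 (12%) higher in 5C-C, the latter 1 without library A of 5C-G or library B of 5C-C. Bhmt, betaine homocysteine methyltransferase, was at 12.3 and 9.29 against 2.30 and 1.81 FPKM (2.36 ± 0.24, adjusted p = 6.83e-06). In the zonation list 2 of 18 genes were called on each side, those higher in 5C-C being 0 without library B of 5C-G and the fit of the 4 libraries giving 1 and 0. Those 2 calls on each side are 11.1% of the list, against 4.14% and 3.21% of all genes. The vitamin C pathway gene Gulo was called higher in 5C-G at 22.3 and 20.7 against 9.35 and 7.97 FPKM (1.28 ± 0.18, adjusted p = 0.000131).

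Bile acid and transporter genes had 4 of 18 members called higher in 5C-C. DESeq2 also called 4 and called 1 higher in 5C-G, whereas limma and the fit of the 4 libraries called 0, with 5 at an unadjusted p under 0.05 higher in 5C-C and 2 higher in 5C-G. Abcb11, the bile salt export pump, was at 0.393 and 0.287 against 1.03 and 1.00 FPKM (-1.62 ± 0.31, adjusted p = 0.00182). Of 22 gluconeogenesis and glycolysis genes 2 (9.09%, against 3.21% of all genes) were called, both higher in 5C-C. Under 0 lay 16 of 22 (median -0.39), against 9362 of all 19884 genes. DESeq2 also called 2, whereas limma and the fit of the 4 libraries called 0, with 11 at an unadjusted p under 0.05. Eno1, enolase, was at 511 and 768 against 1090 and 1190 FPKM (-0.85 ± 0.20, adjusted p = 0.00962). Its value was -0.51 without library A of 5C-G and -1.28 without library B of 5C-G. Ldha was at 541 and 569 against 735 and 691 FPKM (-0.39 ± 0.16, adjusted p = 0.135). Of 28 lipid and sterol synthesis genes 1 (3.57%, near the 3.21% of all genes) was called, Mlxipl, which encodes ChREBP, higher in 5C-C. It was at 0.612 and 0.731 against 1.59 and 2.14 FPKM (-1.50 ± 0.42, adjusted p = 0.0273), and it lost the call without library A of 5C-G (-1.30) or library B of 5C-C (-1.24).

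Most DNA replication and mitosis genes had a negative log2 fold change. Of 24 replication genes 7 (29.2%) were called higher in 5C-C and none in the other direction by any of the 3 tools (1 at an unadjusted p under 0.05; median -0.87), and of 24 mitosis genes 3 (12.5%) were, with 23 of 24 under 0 (median -0.79). Rrm2, the S phase subunit of ribonucleotide reductase, was at 8.31 and 6.56 against 29.2 and 25.8 FPKM (-1.92 ± 0.26, adjusted p = 8.89e-05), and 5C was at 8.22 and 5.72 FPKM. Lig1, the ligase that joins Okazaki fragments, was at 4.0 and 4.77 against 9.20 and 10.4 FPKM (-1.18 ± 0.22, adjusted p = 0.00182), and at -0.98 without library A of 5C-G. Aurkb, the Aurora kinase of the chromosomal passenger complex, was at 1.88 and 2.81 against 6.35 and 5.97 FPKM (-1.40 ± 0.30, adjusted p = 0.00463), with the call lost without library A of 5C-G (-1.07, adjusted p = 0.061). Cdk1, the mitotic kinase, was at 8.01 and 7.16 against 10.3 and 14.9 FPKM (-0.77 ± 0.20, adjusted p = 0.0198), and Pcna, the sliding clamp, at 27.6 and 23.8 against 23.5 and 23.8 FPKM (0.08 ± 0.16, adjusted p = 0.827). The replication genes summed to 114 and 99.0 against 150 and 160 FPKM, and the mitosis genes to 74.0 and 69.0 against 110 and 116 FPKM. The count of calls turned on single libraries. For replication it was 3 without library A of 5C-G, 5 without library B of 5C-C and 11 without library A of 5C-C, and for mitosis it was 1, 2 and 6.

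**Figure D4:**
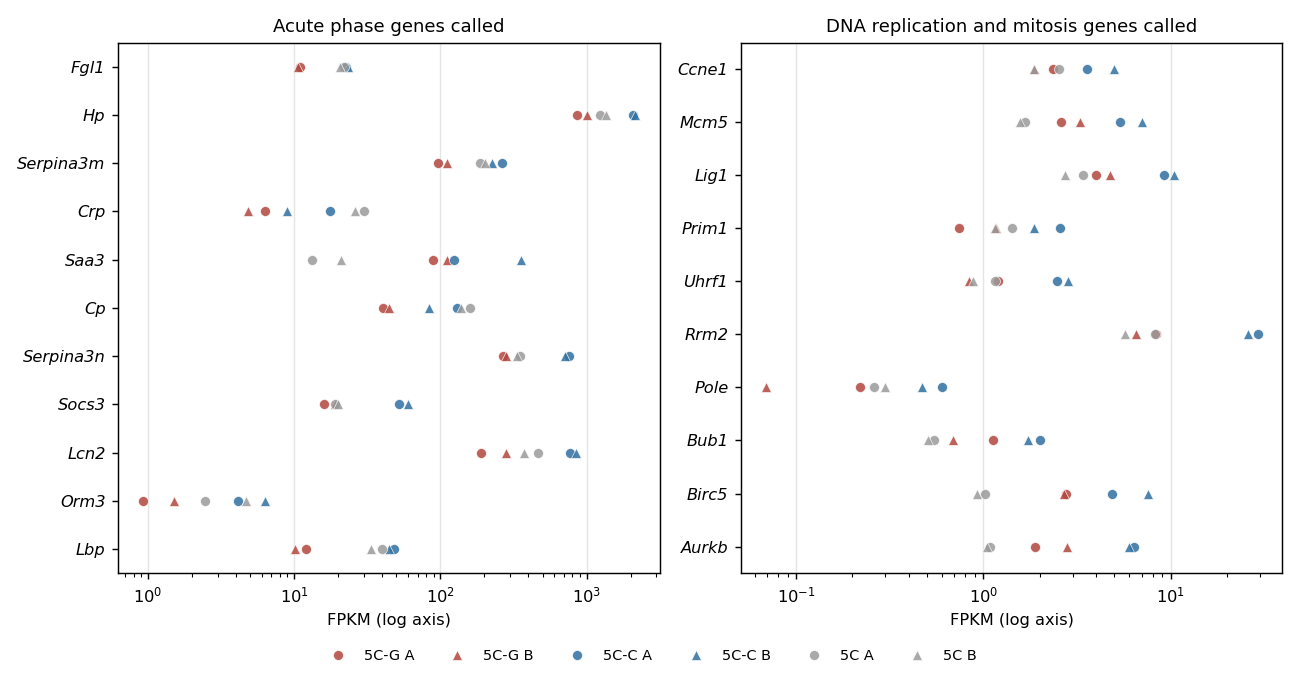
FPKM (log axis) of the called acute phase genes (left) and the called DNA replication and mitosis genes (right) in each library of 5C-G (red), 5C-C (blue) and 5C (grey), with circles for libraries A and triangles for libraries B. Lcn2 lies at 189 and 281 FPKM in 5C-G and at 767 and 843 FPKM in 5C-C, and Rrm2 at 8.31 and 6.56 against 29.2 and 25.8 FPKM.

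Stress and signalling lists had between 0 and 3 calls each. Of 26 apoptosis and senescence genes 1 (3.85%, near the 4.14% of all genes) was called, Cdkn2a, which encodes p16 and ARF, higher in 5C-G at 81.4 and 105 against 24.6 and 53.7 FPKM (1.22 ± 0.30, adjusted p = 0.0112), and the call was lost without library B of 5C-G (0.92) or library A of 5C-C (0.68). Of 18 cAMP response genes Dusp1 and Atf3 (11.1%) were called higher in 5C-G (1.14 ± 0.18 and 1.21 ± 0.27, adjusted p = 0.000295 and 0.00585), each under the fold threshold without library B of 5C-C (0.94 and 0.95), and Pde4b, a cAMP phosphodiesterase, higher in 5C-C (-1.74 ± 0.31, adjusted p = 0.00123). Forskolin was present in both groups. Of 20 unfolded protein response genes Ddit3, or CHOP, at 13.7 and 17.6 against 33.4 and 31.7 FPKM (-1.07 ± 0.23, adjusted p = 0.00505) and Trib3 (10%, against 3.21% of all genes) were called higher in 5C-C, and both were lost without library A of 5C-G (-0.83 and -0.84), Trib3 also without library A of 5C-C (-0.87). None of the 28 respiratory chain genes was called by any of the 3 tools, with 2 at an unadjusted p under 0.05 in each direction and a median of -0.04.

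Each group was also set beside 5C, in the same fit. Since both comparisons use the same 5C libraries, their values are given side by side and no relation between them is drawn. The contractile list had a median of 1.01 in 5C-G and -0.54 in 5C-C against 5C. For the macrophage markers the medians were 2.49 and 0.87, for the acute phase genes -0.55 and 0.50, for the cholangiocyte and progenitor markers -1.66 and 0.39, and for mitosis 0.86 and 1.63. Among the leading genes, Cyp2e1 was under 5C in both groups, by -2.67 ± 0.32 in 5C-G and -5.97 ± 0.38 in 5C-C, and Cd5l was over 5C in both, by 4.53 ± 0.23 and 1.38 ± 0.21. Rerg, a Ras-related growth inhibitor, was level with 5C in 5C-G (0.12 ± 0.23) and lower in 5C-C (-3.40 ± 0.26). Tnfrsf9, the costimulatory receptor 4-1BB, was at 0.731 and 0.724 FPKM in 5C-G, 13.4 and 12.5 FPKM in 5C-C and 1.08 and 1.85 FPKM in 5C, and Dmkn, dermokine, at 0.312 and 0.737, 8.72 and 15.0, and 0.897 and 0.861 FPKM.

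**Figure D5:**
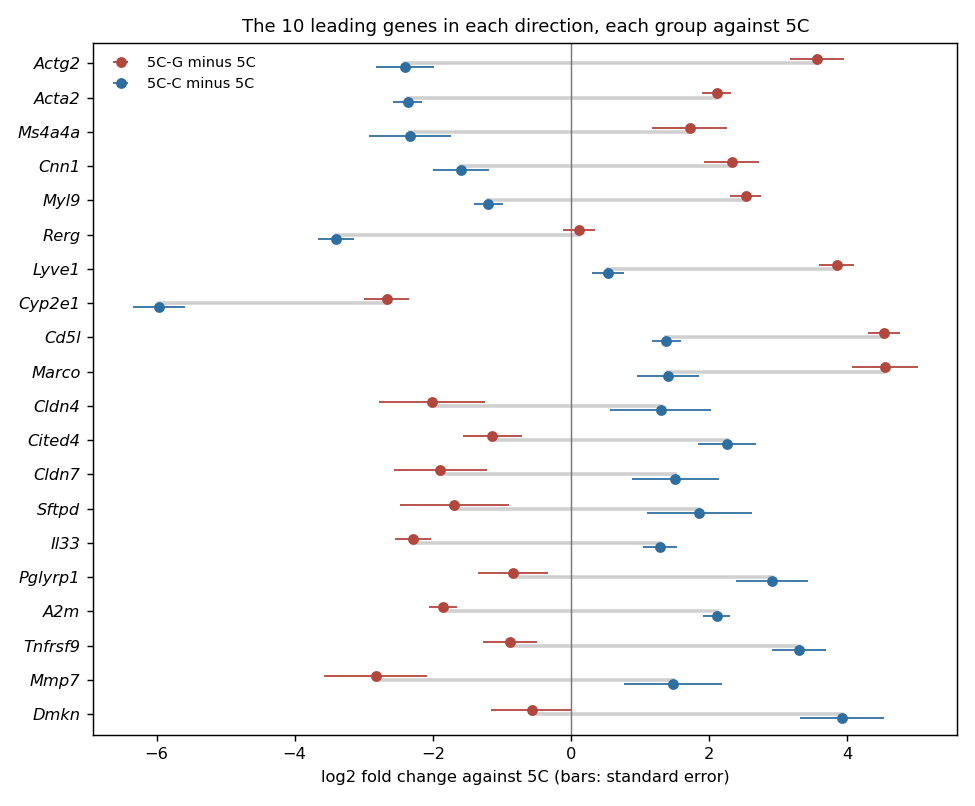
Log2 fold change against 5C of the 10 leading genes in each direction, in 5C-G (red) and in 5C-C (blue), with bars for the standard error. The 5C libraries are shared by both comparisons. Acta2 lies at 2.11 in 5C-G and at -2.36 in 5C-C, and Cyp2e1 lies under 0 in both.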

How the data were processed

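RNA was total RNA from mouse dHeps, made into libraries with an NEBNext Ultra kit and sequenced as paired ends. The submitters' processing notes name the build GRCm39, featureCounts, Subread and DESeq2; how strand and shared reads were counted is not given in the sources used here. The authors deposited a table of counts per gene, whole and not normalized, and a table of FPKM, in which counts are divided by gene length and library total. The number of columns not used was 0. The counts of 27141 genes were tested with edgeR 4.0.16 in R 4.3.3 (TMM, filterByExpr with a minimum count of 10, glmQLFit and glmQLFTest), in a fit of all 13 libraries in 7 groups, after a test on simulated data, with Benjamini-Hochberg adjustment over 19884 genes. The study's methods name DESeq, and DESeq2 1.42.0 was an alternative, as was limma 3.58.1 on log2(FPKM + 1). Levels are the authors' FPKM in each library, with no test of their own, since 2 against 2 cannot go below an exact permutation p of 0.33. The reads carry no molecular identifiers, so that the floor of 3 counts covers counting error only. Gene lists and members were chosen with earlier results of these data known. The genes named were drawn from the 10 leading genes per direction (mean of at least 10 FPKM in the higher group, separate libraries, called with the offset), in each list the 3 members of highest level and the called member of largest change in each direction, the targets, and Alb, Hnf4a, Foxa2, Acta2, Tagln and Cyp3a11. Other genes were named after their values were seen. GC content came from GENCODE release 39, matched by ID for 26905 genes. A few members of the lists are counted but are not reported here by name.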

Additional observations from a re-analysis of the deposited data

How the results depend on the processing

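No called gene named by rule changed sign under the alternatives that changed the tool, scaling, filter or libraries. Of the 43 called higher and the 42 called lower in 5C-G, 37 and 30 kept the call in the fit of the 4 libraries, 39 and 29 with limma on log2(FPKM + 1), and 36 and 25 with the same on all genes. The 1463 calls (824 higher in 5C-G and 639 higher in 5C-C) were 1222 to 1806 when each library was left out in turn, with 650 to 1092 higher in 5C-G and 523 to 720 higher in 5C-C. The fit of the 4 libraries gave 852 calls (471 and 381), limma on log2(FPKM + 1) gave 795 (444 and 351), and the same on all genes gave 664 (390 and 274). A fold threshold of 0.5 gave 2316 calls, 1389 of them higher in 5C-G, and an unadjusted p under 0.05 with the fold threshold of 1 gave 1146 higher in 5C-G and 1020 higher in 5C-C. The balance turned without a filter, with 828 higher in 5C-G and 855 higher in 5C-C, and was near even with at least 10 counts in each of the 4 libraries, with 627 and 631. DESeq2 gave 853 and 786, with 774 and 623 shared. Log2 fold changes fell with GC content across 15595 coding genes (Spearman's coefficient -0.20, genes not being replicates), and an offset for GC content and length left it at 0.0018 with 769 and 672 calls, 704 and 574 of them shared. The cause of these shifts was not tested. The fit of the 4 libraries differs in several ways at once. It has fewer residual degrees of freedom, a larger common coefficient of variation between libraries (0.303 against 0.261) and fewer genes tested (16479 against 19884). Without a library the lone sample of its group is assumed to vary like the other groups. No paired analysis was possible because the columns could be tied to a group but not to a numbered sample of it. Genes near the floor of 3 counts are limited by depth.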
